A study of Mus musculus with 9 samples.

Results

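A set of 8 genes of Schwann cells on their way to making myelin was followed in dorsal root ganglia (DRG) of mouse embryos. Not all of the 8 are particular to these cells. The genes are those of the transcription factors Sox10, Pou3f1 and Egr2, and the myelin protein genes Mbp, Pmp22, Mag, Cnp and Prx. They were taken by name from the table of gene counts, which holds 55247 genes, and all 8 were found and were among the 13200 genes with enough counts to test. Whole ganglia were collected at E18.5 and their poly(A) RNA was sequenced in 9 libraries, 3 for each of 3 genotypes. WT embryos carried no engineered allele that the labels name. Isl1Cre/+ embryos carried Cre recombinase in 1 copy of Isl1, a gene of sensory neurons. Isl1Cre/+::Meis2LoxP/LoxP embryos, called mutant here, carried the same Cre copy and LoxP sites in both copies of Meis2, around the exon with which the coding of the homeodomain begins. The Cre is therefore placed under the control of a neuronal gene, and both Cre genotypes share the loss of 1 Isl1 copy, so that the mutant differs from WT in Isl1 as well as in Meis2. Nothing in the labels says whether the 3 libraries of a genotype came from separate litters or embryos, and p-values measure the spread between these libraries, which may in part be technical.

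Schwann cells come from the neural crest and accompany sensory axons out of the ganglion. Around birth, those that have singled out a large axon begin to wrap it, under signals from the axon such as neuregulin 1. Sox10 keeps cells in the glial lineage and, with Pou3f1, switches on Egr2, and Egr2 then drives the genes for myelin proteins and for the making of myelin lipids. A DRG at this stage holds sensory neurons, satellite glia around their cell bodies, Schwann cells in the nerve roots and fibres, and connective tissue and vessels, so that the RNA of Schwann cells is only a part of what was sequenced.

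The libraries held 23854607 to 29103444 counts, of which the genes tested took 99.4 to 99.5%. WT library 1 and mutant library 2 were the least like the others, with median rank correlations over genes of 0.981 and 0.979 with the other 8 libraries, against 0.991 to 0.995 for the rest. Meis2 was counted at 103 ± 7.24 cpm (counts scaled to a common library size, SD, n = 3) in WT, 95.7 ± 6.31 for Isl1Cre/+ and 40.9 ± 0.256 in the mutant. Isl1 was at 262 ± 30.4, 186 ± 19.1 and 188 ± 24.7 cpm in the same order, lower than WT in both genotypes with Cre. Both go with the labels.

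The 8 genes lie on 6 chromosomes of the GRCm38 (mm10) build. Sox10 lies on chromosome 15 from 79154908 to 79165240 on the minus strand, Egr2 on chromosome 10 from 67535475 to 67542188 and Pmp22 on chromosome 11 from 63128982 to 63159547, both on the plus strand. Pou3f1, a gene of 1 exon, lies on chromosome 4 from 124656807 to 124660655, and 8.57% of its exon bases lie opposite exons of Gm2164. Cnp lies on chromosome 11 from 100574904 to 100591729, with 4.23% of its exon bases opposite Dnajc7, and Prx on chromosome 7 from 27499324 to 27520214, with 5.38% opposite Gm15541. Whether the counting used strand is not given in the sources used here, and for these 3 genes a small part of the reads could come from the other strand. Mag lies on chromosome 7 from 30899176 to 30914873 on the minus strand, and neither it nor the other 4 genes has exons opposite. Mbp was counted as 1 gene of 16 transcripts, which include those of the longer Golli unit, and its value is the sum over them.

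Sequences just before the start sites are shown for 4 myelin genes, since genes of myelin proteins are known targets of Sox10 and Egr2, whose levels are set beside theirs below. They come from RefSeq (GRCm38.p6), cover up to 250 bases upstream of the start and stop before the first annotated exon base, which leaves 215 bases for Cnp. Capitals mark ACAAAG, a core of SOX binding sites, or its reverse complement CTTTGT. Windows for Egr2 were also searched, and none was at hand for Sox10, Pou3f1 and Mbp.
Pmp22, chr11:63128732-63128981, plus strand: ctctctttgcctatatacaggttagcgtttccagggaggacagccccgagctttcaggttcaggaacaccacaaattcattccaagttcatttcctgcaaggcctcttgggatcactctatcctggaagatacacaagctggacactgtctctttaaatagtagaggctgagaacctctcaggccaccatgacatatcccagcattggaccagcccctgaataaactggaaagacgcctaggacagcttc
Mag, chr7:30914923-30915172, minus strand: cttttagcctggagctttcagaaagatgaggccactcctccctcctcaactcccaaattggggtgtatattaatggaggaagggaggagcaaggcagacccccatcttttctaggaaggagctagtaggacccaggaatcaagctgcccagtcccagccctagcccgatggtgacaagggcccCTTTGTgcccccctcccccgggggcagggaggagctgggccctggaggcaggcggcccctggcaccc
Cnp, chr11:100574689-100574903, plus strand: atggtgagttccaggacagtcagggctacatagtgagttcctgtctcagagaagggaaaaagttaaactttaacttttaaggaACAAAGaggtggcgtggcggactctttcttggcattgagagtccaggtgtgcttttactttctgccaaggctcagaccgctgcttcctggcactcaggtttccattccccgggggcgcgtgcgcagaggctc
Prx, chr7:27499074-27499323, plus strand: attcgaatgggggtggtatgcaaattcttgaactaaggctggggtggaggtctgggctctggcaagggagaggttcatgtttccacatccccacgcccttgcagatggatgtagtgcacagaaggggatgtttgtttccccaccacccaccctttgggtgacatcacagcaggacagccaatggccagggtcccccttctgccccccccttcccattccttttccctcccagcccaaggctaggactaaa
The match lies at position -67 from the Mag start shown and -167 from the Cnp start, counted from the first transcribed base. Mag has 3 start sites and Pmp22 has 4, and the window of 1 is shown for each. The same match lies at -126 from the second Mag start, and the window of the third has none. ACAAAG on either strand is present in 16.5% of 32851 windows of this length before mouse start sites. The other letters searched, on both strands, were ACAATG, a second SOX core present in 10.7% of windows, and GCGNGGGCG, the EGR site, present in 4.70%. Neither was found in any window of Egr2, Pmp22, Mag, Cnp or Prx, and ACAAAG was not found in those of Egr2, Pmp22 and Prx. A match of letters is a description and shows no binding.

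All 8 genes were detected in every library, and their levels spanned a wide range. Per kilobase of exon, Pmp22 stood highest at 159.5 cpm per kb averaged over the 9 libraries, and no library of any other member reached its range. Cnp at 23.4, Sox10 at 22.4 and Mbp at 20.6 cpm per kb followed close together, with overlapping ranges. Cnp was above Sox10 in 7 of 9 libraries and Sox10 above Mbp in 8 of 9. Prx at 6.71 cpm per kb was below Mbp and above Mag, at 1.79, in 9 of 9 libraries with no overlap of the ranges. Egr2 at 1.23 and Pou3f1 at 1.02 cpm per kb were the lowest, and Mag exceeded Egr2 in 9 of 9 libraries although their ranges over libraries overlapped. The order of the genotype means was the same in each genotype except among Sox10, Cnp and Mbp: Sox10 was the highest of these 3 in WT at 23.3 cpm per kb and the lowest in the mutant at 20.0.

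**Figure D1:**
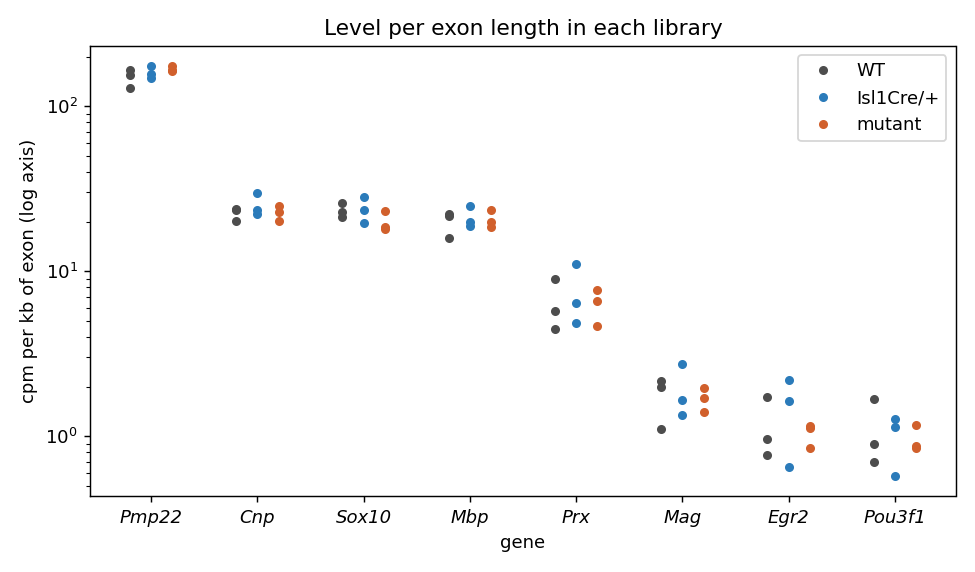
Level of each gene per kilobase of exon in each of the 9 libraries, on a log axis in cpm per kb, coloured by genotype. Pmp22 lies above all others, Cnp, Sox10 and Mbp overlap near 20.6 to 23.4, and Mag, Egr2 and Pou3f1 lie at the bottom.

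The question of the design is whether these genes differ when Meis2 is removed, and none of the 8 was called. A gene was called at a fold change of at least 1.2 with an unadjusted p under 0.05, the criterion of the study, in edgeR's quasi-likelihood test. In mutant against WT 0 of 8 genes met it, where 0.318% of the 13200 genes tested did. In mutant against Isl1Cre/+ it was 0 of 8 beside 1.67% of all genes, and in Isl1Cre/+ against WT 0 of 8 beside 1.4%. With unadjusted p under 0.05 alone the counts were also 0 of 8 in each comparison, where 0.371%, 2.73% and 1.79% of all genes passed. DESeq2 and limma voom likewise called 0 of 8 in each comparison. After Benjamini-Hochberg adjustment of the edgeR p-values over all genes 0 of 8 passed, beside 0.00758%, 0.00758% and 0% of all genes. At these background shares, a list of 8 genes would on average hold less than 1 called gene. The libraries of the genotypes overlapped for all 8 genes in each comparison, where 2.76%, 7.65% and 5.66% of all genes had no overlap. In bulk RNA, fewer Schwann cells and less RNA per Schwann cell cannot be told apart in any of these values.

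Sox10, the factor that all later steps depend on, was the member nearest to a difference. It was counted at 79.2, 64.8 and 69.5 cpm in WT libraries 1 to 3, 86.5, 60.1 and 71.3 for Isl1Cre/+ and 56.8, 55.3 and 71.0 in the mutant. Mutant libraries 1 and 2 were the lowest of all 9, and mutant library 3 lay within the range of both controls. The fold change was 0.858 against WT (95% interval 0.697 to 1.05) and 0.840 against Isl1Cre/+ (0.660 to 1.07), with adjusted p of 0.9999 and 0.9997 by edgeR (quasi-likelihood, Benjamini-Hochberg). These comparisons share the mutant libraries. The call depended on single libraries. Without mutant library 3, Sox10 met the criterion against WT with a log2 fold change of -0.34 and against Isl1Cre/+ with -0.37, and without Isl1Cre/+ library 2 it met it against Isl1Cre/+ with -0.37. Without WT library 1 and mutant library 2, the 2 libraries least like the others, its log2 fold change against WT was -0.07. With no filter on low counts it met the criterion against Isl1Cre/+ (-0.27). Against WT, Isl1Cre/+ had a fold change of 1.03 (0.824 to 1.29).

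Pou3f1, known as Oct6 or SCIP, times the passage from the stage of 1 cell around 1 axon to myelination. Its values were 3.46, 2.69 and 6.43 cpm for WT, 4.90, 2.22 and 4.37 for Isl1Cre/+ and 3.27, 3.34 and 4.51 in the mutant, from 62 to 185 counts a library. The highest and lowest of these were a WT and an Isl1Cre/+ library, with the mutant between them. The fold change was 0.883 against WT (0.509 to 1.53) and 0.967 against Isl1Cre/+ (0.587 to 1.59). These intervals were among the widest of the 8 genes.

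Egr2, or Krox20, is the factor that commits a Schwann cell to myelin. It was at 3.28, 2.62 and 5.91 cpm for WT, 7.49, 2.22 and 5.57 for Isl1Cre/+ and 2.89, 3.80 and 3.94 in the mutant. Isl1Cre/+ held both the highest and the lowest library, 220 and 62 counts, and the mutant libraries lay within that range. The largest fold change of any member was that of Egr2 in mutant against Isl1Cre/+, 0.695, and its interval ran from 0.362 to 1.33. Its log2 fold change of -0.52 rested on single libraries: without Isl1Cre/+ library 2 it was -0.88 and called, and without Isl1Cre/+ library 1 it was -0.14. Against WT the fold change was 0.900 (0.532 to 1.52).

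**Figure D2:**
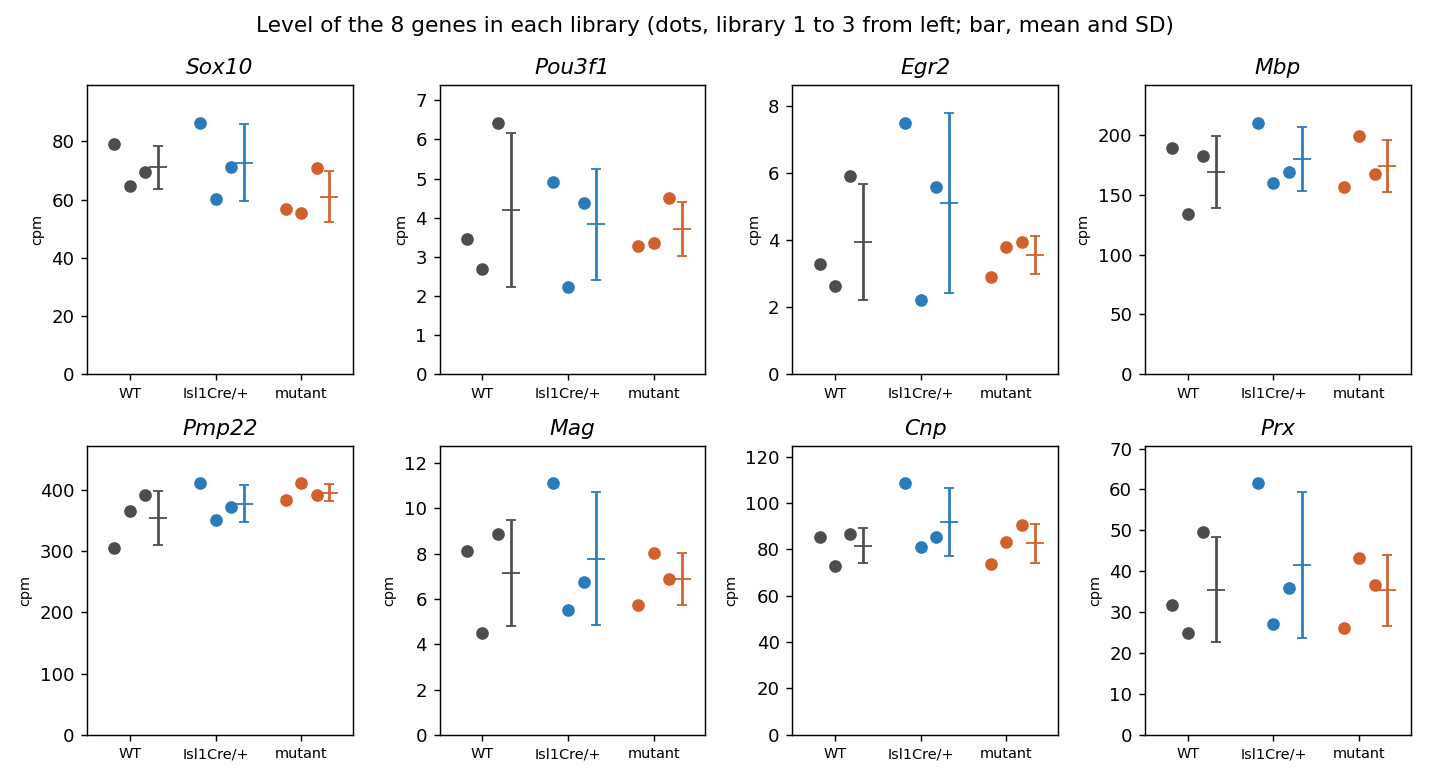
Level of the 8 genes in cpm, 1 panel a gene with its axis from 0, each dot a library and each bar the mean and SD of the 3 libraries of a genotype. The genotypes overlap in every panel, and Isl1Cre/+ library 1 is the highest of the 9 for 6 genes.

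None of the 5 myelin protein genes was called in any comparison. Mbp encodes the basic protein that holds the inner faces of the myelin membrane together. It was at 189, 134 and 183 cpm for WT, 210.4, 160.1 and 169 for Isl1Cre/+ and 157, 199 and 167 in the mutant. WT library 2 was the lowest and Isl1Cre/+ library 1 the highest, and the mutant libraries all lay between them. The mutant differed by 1.03 fold from WT (0.803 to 1.33) and by 0.969 fold from Isl1Cre/+ (0.788 to 1.19). Both intervals, from 3 libraries a genotype, include lower, equal and higher levels in the mutant.

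Cnp, the enzyme CNPase of the cytoplasmic channels of myelin, was at 85.3, 72.8 and 86.8 cpm for WT, 108, 81.0 and 85.5 for Isl1Cre/+ and 73.8, 83.2 and 90.7 in the mutant. Only Isl1Cre/+ library 1 passed 100 cpm. The fold change was 1.01 against WT (0.845 to 1.21) and 0.901 against Isl1Cre/+ (0.736 to 1.103), and Isl1Cre/+ against WT gave 1.13 (0.924 to 1.38).

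Pmp22, whose protein spans the compact myelin membrane and whose dosage is critical in human inherited neuropathy, was the most even of the 8 genes. It was at 305, 365 and 392 cpm for WT, 410.1, 351 and 371 for Isl1Cre/+ and 383, 410.3 and 392 in the mutant. WT library 1 stood lowest and the mutant libraries spread little. Pmp22 was also the only member whose mean was higher in the mutant than in both other genotypes, at 395 ± 13.7 cpm against 354 ± 44.7 in WT and 377 ± 30.1 in Isl1Cre/+. The fold change of 1.12 against WT had an interval of 0.929 to 1.34, and that of 1.05 against Isl1Cre/+ one of 0.924 to 1.19, the narrowest interval of the members in that comparison.

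Mag, the adhesion molecule on the Schwann cell side of the axon contact, was at 8.09, 4.50 and 8.86 cpm for WT, 11.1, 5.505 and 6.74 for Isl1Cre/+ and 5.71, 8.02 and 6.89 in the mutant. Prx, periaxin, which links the Schwann cell membrane to the basal lamina, was at 31.8, 25.0 and 49.7 cpm for WT, 61.5, 27.1 and 36.0 for Isl1Cre/+ and 26.1, 43.1 and 36.7 in the mutant. For both genes the extremes lay in the controls, and the mutant libraries fell between them. The mutant differed from WT by 0.962 fold for Mag (0.624 to 1.48) and by 0.993 fold for Prx (0.636 to 1.55), and from Isl1Cre/+ by 0.883 (0.574 to 1.36) and 0.850 (0.517 to 1.40).

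Over the 8 genes, the median log2 fold change was -0.03 in mutant against WT, with 3 genes above 0 and 5 below, where the median of all genes tested was -0.0094. In mutant against Isl1Cre/+ it was -0.17, with 1 gene above 0 and 7 below, beside 0.00029 for all genes, and in Isl1Cre/+ against WT it was 0.12, with 7 above and 1 below, beside -0.0016. The last 2 comparisons share the Isl1Cre/+ libraries, so that a high Isl1Cre/+ library moves them in opposite directions. Library 1 of Isl1Cre/+ was such a library. Without it, the log2 fold change in mutant against Isl1Cre/+ went from below to above 0 for Pou3f1, Mbp, Mag and Prx.

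**Figure D3:**
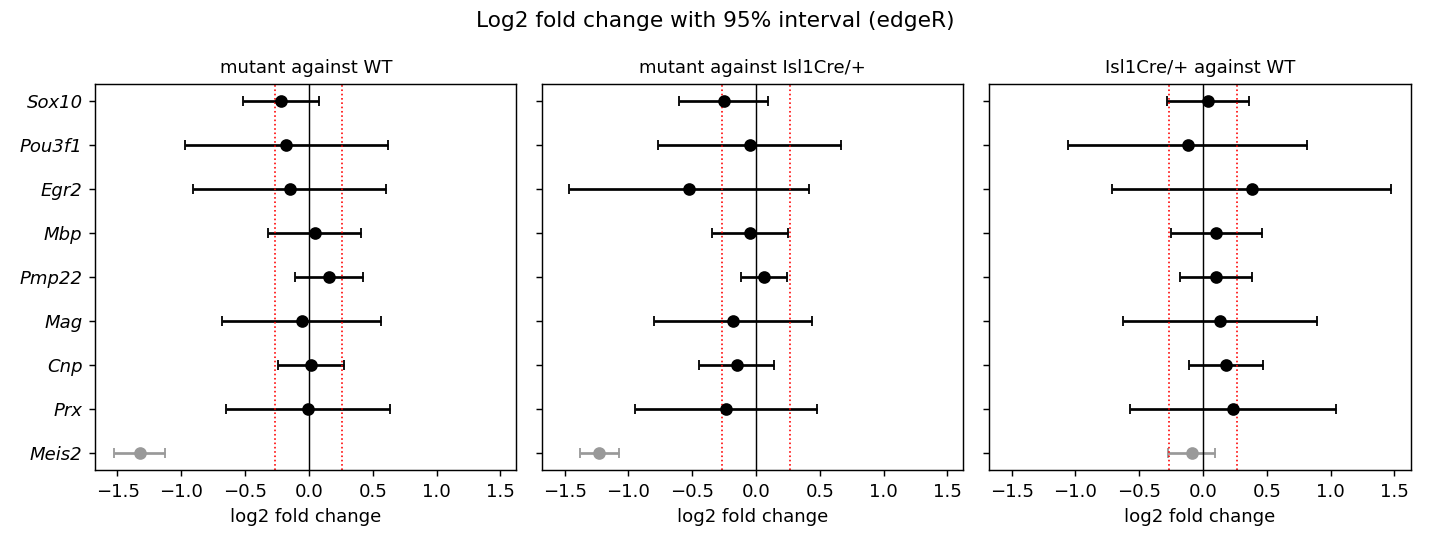
Log2 fold change of each gene in the 3 comparisons with its 95% interval from edgeR, in black for the 8 genes and in grey for Meis2, with dotted lines at a fold change of 1.2 in either direction. The intervals of all 8 genes include 0, and those of Egr2, Pou3f1, Mag and Prx are the widest.

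The spread between libraries was not the same for each of the 8 genes. The highest library exceeded the lowest 3.38 fold for Egr2, 2.90 fold for Pou3f1, 2.47 fold for Mag and 2.46 fold for Prx. It did so 1.57 fold for Mbp, 1.56 for Sox10, 1.49 for Cnp and 1.35 for Pmp22, where the median gene tested had a ratio of 1.35. Within genotypes, the SD of log2 cpm was 0.637 for Egr2, 0.528 for Pou3f1, 0.499 for Prx and 0.447 for Mag. These SDs were larger than those of 97.8%, 96.8%, 96.4% and 95.5% of the genes tested, whose median was 0.145. The counts a library were 62 to 220 for Egr2, 62 to 185 for Pou3f1, 127 to 326 for Mag and 694 to 1806 for Prx, and the part of counting error in these SDs was not tested. The SD of Pmp22, 0.130, was larger than that of 41.6% of genes.

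The levels moved together from library to library. Of the 28 pairs of members, 27 had a positive Pearson's r of log2 cpm over the 9 libraries, with a median r of 0.647, and 12 had an adjusted p under 0.05 in an exact permutation test over the 362880 orders of the libraries (two-sided, Benjamini-Hochberg over the 28 pairs). Over all pairs of the 13200 genes tested, 50.3% had a positive r, the median r was 0.0052, and 5.54% had an r of at least 0.754, the lowest r of the 12 called pairs. Spearman's rho also gave 12 pairs, but not the same ones. Pou3f1 with Mag and Pou3f1 with Cnp came in, and Sox10 with Cnp and Mbp with Cnp dropped out. Pearson's r of the deviations from genotype means gave 12 pairs as well, with a median r of 0.698. All points share library, depth and scaling, and a pair's r does not tell a shared change in each cell from a varying share of Schwann cells or nerve in the dissected tissue, which cannot be told apart here.

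The closest pair by Pearson's r was Mbp and Mag, both proteins of the myelin sheath, with r = 0.954 and rho = 0.900 (exact permutation test, adjusted p = 0.00563 for r and 0.0144 for rho). Without the 2 libraries farthest from the median of Mbp r was 0.882, and from deviations within genotypes it was 0.962. The factors Pou3f1 and Egr2, the closest pair by Spearman's rho, had r = 0.890 and rho = 0.950 (exact permutation test, adjusted p = 0.00941 and 0.00988), with r = 0.880 without the 2 libraries farthest from the median of Pou3f1 and 0.950 within genotypes. Egr2 and its target Prx had r = 0.902 and rho = 0.883 (exact permutation test, adjusted p = 0.00941 and 0.0144), with 0.830 without the 2 farthest libraries and 0.901 within genotypes. Mag and Prx had r = 0.924 and rho = 0.883 (exact permutation test, adjusted p = 0.00613 and 0.0144), with 0.853 and 0.924. In the other 8 called pairs, r without the 2 farthest libraries was at most 0.8, and in 1, Mbp and Cnp, it was 0.426.

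Sox10 and Pmp22 had the fewest called pairs over the 9 libraries. Sox10 was called in 1 of its 7 pairs, with Cnp (r = 0.754 and rho = 0.700, exact permutation test, adjusted p = 0.0370 and 0.0807, r = 0.702 without the 2 farthest libraries and 0.851 within genotypes), so that the ranks did not pass. Pmp22 was called in 0 of 7 pairs, by Pearson's r or Spearman's rho, and 1 of its 7 pairs had an unadjusted p under 0.05, with Prx by rho. Both counts depended on single libraries. Without mutant library 2, Sox10 was called in 3 pairs, with Cnp, Mag and Mbp, and without WT library 1 Pmp22 was called in 3, with Mag, Mbp and Prx. Without the 2 libraries farthest from the median of Pmp22, r was 0.831 with Mag, 0.776 with Prx and 0.660 with Cnp. In the pairs of Pmp22 with Sox10, Pou3f1, Egr2 and Mbp, the 2 libraries farthest from the other gene's median were left out. There r was -0.439, 0.326, 0.293 and -0.026 in that order. The lowest r of all was that between Sox10 and Pmp22, -0.191. By Pearson's r, Cnp and Prx were called in 5 of 7 pairs, Egr2 and Mag in 4, Mbp in 3 and Pou3f1 in 2.

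**Figure D4:**
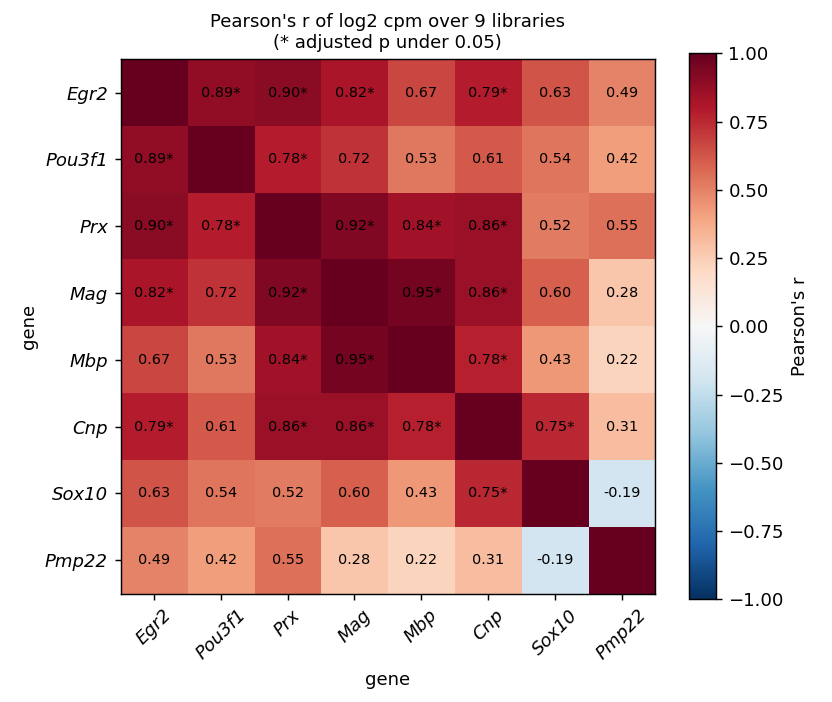
Pearson's r of log2 cpm over 9 libraries for each pair of the 8 genes, coloured from -1 to 1, with a star where the adjusted p of the exact permutation test is under 0.05. The 12 stars fall among Egr2, Pou3f1, Prx, Mag, Mbp and Cnp, except that of Sox10 with Cnp.

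The number of called pairs rested to a large part on 1 library. In Isl1Cre/+ library 1 all 8 genes were above their median over libraries, and 6 had their highest value there. WT library 3 had 7 above the median. WT library 2, Isl1Cre/+ library 2 and mutant library 1 had 0 of 8 above it, and WT library 2 had the lowest value of 4 genes. Thus each genotype held at least 1 low library, and both controls a high one. Without Isl1Cre/+ library 1, 27 of 28 pairs kept a positive r with a median of 0.531, but only 2 pairs had an adjusted p under 0.05 in the exact permutation test, Mbp with Mag and Pou3f1 with Egr2. These 2 pairs were called whichever library was left out. Without mutant library 1 the count was 7, and without the others taken singly it was 8 to 16. Without both WT library 1 and mutant library 2 it was 20.

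**Figure D5:**
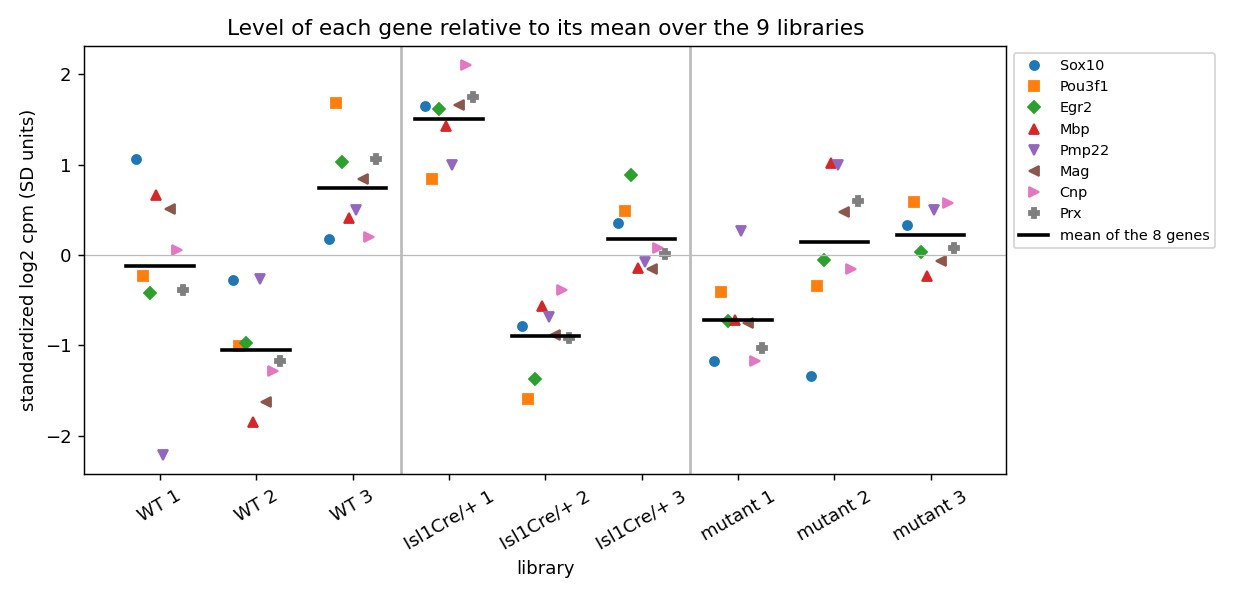
Standardized log2 cpm of the 8 genes in each library, in SD from the gene's mean over the 9 libraries, with a black bar for the mean of the 8 genes and grey lines between genotypes. The mean of the 8 genes runs from -1.06 in WT library 2 to 1.51 in Isl1Cre/+ library 1, and each genotype holds libraries on both sides of 0.

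Other cell types varied between the same libraries. In Isl1Cre/+ library 1 the summed level of 5 endothelial markers was 382 cpm, against 212 to 341 in the other 8, and that of 6 fibroblast markers was 4530 cpm in a range of 2565 to 4907. The highest fibroblast sum and the highest sum of 5 macrophage markers, 63.1 cpm, were those of mutant library 2, where the mean standardized level of the 8 genes was 0.15. The sum of 9 sensory neuron markers ran from 9730 to 12230 cpm in 8 libraries and was 15532 in WT library 1, where Pmp22 was lowest. Most of that sum was Nefl, at 8108 cpm, and Prph, at 3066 cpm. Tubb3, Avil and Snap25 were also highest in WT library 1, but Elavl4 was lowest there, at 308 cpm. The 10 Schwann lineage markers, of which Sox10 is 1, summed to 1559 to 2068 cpm for WT, 1610 to 1754 for Isl1Cre/+ and 1443 to 1749 in the mutant. Most of this sum was Ngfr, which sensory neurons also express, at 929.8 to 1503 cpm with the highest value in WT library 1. Of 12 oligodendrocyte markers, the central nervous system counterpart of these cells, Opalin had 0 counts in all 9 libraries and Mog 1 count in total. Olig1 had 1 to 62 counts and Olig2 0 to 40, the most in WT library 1 for both, and the 12 markers summed to 61.8 to 135 cpm, highest in mutant library 2, where Cldn11 alone, a gene not particular to these cells, made 86.7 cpm of the sum. The 4 astrocyte markers summed to 59.2 cpm in Isl1Cre/+ library 1 and 56.4 in WT library 1, in a range of 31.2 to 59.2. Among them, Gfap had 325 and 236 counts in these 2 libraries and 5 to 118 in the others. The part of these differences between libraries in the levels of the 8 genes was not tested.

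Dividing by Sox10 in the same library gives the other 7 genes relative to a marker of the whole Schwann lineage, which satellite glia also express. Cnp per Sox10 was 1.08, 1.12 and 1.25 for the WT libraries and 1.30, 1.504 and 1.28 for the mutant ones, with a mean of 1.27 ± 0.0746 (SD, n = 3) for Isl1Cre/+. Thus every mutant library lay above every WT library. It was the only 1 of 7 such ratios without overlap between mutant and WT, where 4.79% of all genes tested had none, and in mutant against Isl1Cre/+ the Cnp ratios overlapped. Pmp22 per Sox10 was 3.84, 5.63 and 5.64 in WT and 6.76, 7.42 and 5.52 in the mutant, and Mbp per Sox10 2.39, 2.07 and 2.63 against 2.76, 3.60 and 2.36. The 3 ratios carry the low Sox10 of mutant libraries 1 and 2.

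Among the genes whose levels over the 9 libraries were most like the mean of the 8 members were Ctnna3, an alpha-catenin (r = 0.965), Cldn19, the claudin of Schwann cell tight junctions (0.950), Egfl8, a secreted protein with EGF repeats (0.940), and Chst3, a sulfotransferase of chondroitin (0.932). Cldn19 was at 10.1, 5.20 and 16.0 cpm for WT, 20.7, 6.26 and 11.3 for Isl1Cre/+ and 8.91, 14.4 and 10.5 in the mutant, again highest in Isl1Cre/+ library 1 and lowest in WT library 2. Measured in the same way against the mean of the other 7 members, Prx had r = 0.963, Egr2 0.922, Mag 0.915, Cnp 0.878, Pou3f1 0.782, Mbp 0.768, Sox10 0.550 and Pmp22 0.340. Among the genes tested these r ranked at place 2 for Prx, 1045 for Sox10 and 2584 for Pmp22. These are descriptions over 9 libraries.

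Of the pathway around the 8 genes, 1 gene in 5 lists was called. Of 21 other genes for myelin proteins and lipids 17 were tested and 0 met the criterion in any comparison by edgeR, with 0 at an unadjusted p under 0.05 and medians of the log2 fold change of 0.0072 in mutant against WT, -0.07 in mutant against Isl1Cre/+ and 0.09 in Isl1Cre/+ against WT. Cd9 and Ndrg1, among those with the most counts, had log2 fold changes in mutant against WT of 0.10 and 0.12. The 4 that had too few counts, Gjb1, Ncmap, Gldn and Pmp2, are not described further, and 86.9% of the exon bases of Pmp2 overlap Gm37389 on the same strand.

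Of 15 genes for axonal signals and Schwann cell receptors, 1 met the criterion, Adgrg6, in mutant against Isl1Cre/+, where 1.67% of all genes did. Adgrg6 encodes the adhesion receptor GPR126, through which cyclic AMP rises and Egr2 is switched on. It was at 62.5, 84.1 and 88.9 cpm for WT, 103, 88.0 and 106 for Isl1Cre/+ and 75.7, 79.9 and 85.4 in the mutant, and the mutant and Isl1Cre/+ libraries did not overlap, as in 7.65% of all genes. The log2 fold change was -0.30 (SE 0.0863, adjusted p = 0.9997 by edgeR (quasi-likelihood, Benjamini-Hochberg)), and against WT it was 0.03. The medians of the 15 genes were 0.0094, -0.12 and 0.14 in the 3 comparisons in the order above. Lamc1, Itgb1 and Dag1, the laminin chain and laminin receptors with the most counts, were not called.

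Among 14 other promyelinating regulators, 0 met the criterion in any comparison by edgeR and 0 had an unadjusted p under 0.05, with medians of 0.03, -0.02 and 0.04. Those with the most counts were the chromatin regulators Smarca4, Chd4 and Hdac2, which neurons also express. Of 10 regulators of the immature or repressed state 9 were tested and 0 were called, at either threshold, with medians of -0.06, -0.05 and 0.06. Id4, Jun and Hey2 led this list in counts, and Jun, the factor that opposes Egr2, had a log2 fold change of -0.10 in mutant against WT. The relatives of Egr2 in this list, Egr1 and Egr3, were named after their values were seen. They were at -0.84 and -0.61 in mutant against Isl1Cre/+ and at -0.13 and -0.30 in mutant against WT, not called. Egr1 ran from 9.47 to 25.0 cpm over the 3 Isl1Cre/+ libraries and from 7.93 to 14.8 over the mutant ones, and of the Isl1Cre/+ libraries it was lowest in library 2, as was Egr2. Of 19 genes of cholesterol and fatty acid synthesis, which myelinating cells need in quantity but which neurons use too, 0 were called at either threshold. Their medians were -0.04, -0.05 and 0.0079, with 15 of 19 below 0 in mutant against WT and 18 of 19 in mutant against Isl1Cre/+, where 53.8% and 49.8% of all genes were below 0. The 19 genes summed to 4725 cpm in mutant library 2 against 5535 and 6163 in the other mutant libraries. WT library 1 was nearly as low, at 4844 cpm in a WT range of 4844 to 6276. Scd2, Hmgcs1 and Fasn, with the most counts, were at -0.0087, -0.02 and -0.13 in mutant against WT. DESeq2 and limma voom were run on the 8 genes and not counted over these lists.

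Of the 10 lists of cell type markers, 8 had 0 genes meeting the criterion in any comparison, by edgeR, and 0 at an unadjusted p under 0.05. In the sensory neuron list Isl1 met it, lower in both Cre genotypes than in WT, and the leading genes Nefl, Prph and Tubb3 did not. In the endothelial list Kdr, the receptor for VEGF, was lower in mutant than in Isl1Cre/+ with a log2 fold change of -0.37 and higher in Isl1Cre/+ than in WT with 0.52, and Pecam1 was higher in Isl1Cre/+ than in WT with 0.35. Of all genes, 0.318% met the criterion in mutant against WT, 1.67% in mutant against Isl1Cre/+ and 1.4% in Isl1Cre/+ against WT. In Isl1Cre/+ against WT, 0 genes passed after Benjamini-Hochberg adjustment of the edgeR p-values. Isl1Cre/+ library 1, the library highest in 6 of the 8 genes, was also the highest in Kdr, at 84.1 cpm in a range of 36.8 to 84.1. The Schwann lineage list, led in counts by Ngfr, S100b and Gfra3, had medians of -0.0066, -0.07 and 0.05, and the satellite glia list, led by Apoe, Fabp7 and Ednrb, 0.06, 0.10 and -0.12. In mutant against WT, the medians were -0.12 for the sensory neuron, 0.14 for the endothelial, 0.12 for the fibroblast, 0.04 for the macrophage, -0.12 for the astrocyte and -0.07 for the oligodendrocyte list, of whose 12 genes 5 were tested. In mutant against Isl1Cre/+ they were -0.05, -0.10, 0.07, 0.28, 0.05 and 0.0097 in the same order, with 5 of 5 endothelial genes below 0 and 4 of 4 macrophage genes above. In Isl1Cre/+ against WT they were -0.03, 0.26, 0.04, -0.17, -0.07 and 0.0087. The fibroblast list was led in counts by Col1a1, Col3a1 and Col1a2, the macrophage list by Csf1r, C1qb and Cx3cr1, the astrocyte list by Aqp4, Slc1a2 and Aldh1l1, the oligodendrocyte list by Cldn11, Cspg4 and Aspa, and the endothelial list by Cdh5, Pecam1 and Kdr. The motor neuron and melanocyte lists had 1 tested gene each, Slc5a7 and Tyrp1, at -0.07 and 0.22 in mutant against WT.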

How the data were processed

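The authors selected poly(A) RNA from DRGs, prepared CORALL libraries (Lexogen), aligned the reads to GRCm38 (mm10) with STAR 2.7.10, removed duplicates by molecular identifier and counted uniquely mapped reads per gene with HTSeq 0.6. The deposited values used here are these raw counts per gene, not normalized. The annotation release and the strand option are not given in the sources used here. The table also holds the results of the authors' limma comparisons (log2 fold changes, p-values, moderated statistics), which were not used. Gene positions and exon lengths came from GENCODE for GRCm38.

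Genes that reached 100 counts in 1 or more libraries entered the tests (13200 of 55247), made for each pair of genotypes alone, with edgeR 4.0.16 (TMM, quasi-likelihood, two-sided, R 4.3.3). As in the study, a gene was called where the fold change was 1.2 or more and the unadjusted p under 0.05. Adjusted p-values are Benjamini-Hochberg over all genes tested. Levels are TMM-scaled cpm, with a prior count of 2 on the log2 scale. Library totals were 23854607 to 29103444. Over all genes, the chi-square per degree of freedom between libraries of a genotype was 12.6 to 129, so that none of these pairs of libraries was alike within counting error. Correlations used exact permutation (scipy 1.17.1). Alternatives were DESeq2 1.42.0, limma 3.58.1 (voom), other scalings and filters, 1 fit over all genotypes, a replicate block and leaving out libraries. The scripts were tested on simulated data.

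The 8 genes and the gene lists were chosen with earlier results of these data known. Named beside the 8 genes were Meis2 and Isl1, the 3 genes of a list with the most counts and any that met the criterion, and the 5 genes most like the members, of which some are not reported here. The 10 cell type lists covered Schwann lineage, satellite glia, oligodendrocytes, astrocytes, sensory neurons, motor neurons, fibroblasts, melanocytes, endothelial cells and macrophages.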

Additional observations from a re-analysis of the deposited data

How the results depend on the processing

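The number of the 8 genes called stayed at 0 in mutant against WT and in Isl1Cre/+ against WT under each of the 10 and 10 other settings, and in mutant against Isl1Cre/+ under 9 of 10, with 1 (Sox10) without the filter on low counts. The setting that kept only genes with at least 100 counts in every library did not test Egr2 and Pou3f1, whose lowest count was 62. Leaving out libraries gave 0 to 1 in mutant against WT, 0 to 2 in mutant against Isl1Cre/+ and 0 in Isl1Cre/+ against WT. The number of pairs called ranged from 2 to 20 when libraries were left out, and from 12 to 14 under other scalings. Leaving out WT library 1 together with mutant library 2 was chosen after the data were seen. With a replicate block 0 of 8 genes were called in each comparison. Replicate numbers were not taken as pairing libraries, since same-numbered libraries deviated from their genotype means with correlations of -0.595 to 0.389.

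Some uncalled log2 fold changes changed sign, and not all of them were near 0. Prx in mutant against Isl1Cre/+, at -0.23, reached 0.16 with libraries left out. In mutant against WT, Prx, at -0.0096, was 2.5e-05 with DESeq2 size factors, 0.0026 with library size alone, 0.0084 without the filter, 0.00024 with DESeq2, 0.017 with limma voom and 0.015 with the replicate block. In mutant against Isl1Cre/+, Pou3f1, at -0.05, was 0.0057 with limma voom and 0.0048 with the replicate block, and Isl1, at 0.01, was -0.015 with library size alone and -0.0037 without the filter. With libraries left out, the values in mutant against WT ran from -0.42 to 0.27 for Pou3f1, -0.38 to 0.27 for Egr2, -0.094 to 0.14 for Mbp, -0.30 to 0.13 for Mag, -0.059 to 0.091 for Cnp and -0.25 to 0.31 for Prx. In mutant against Isl1Cre/+ they ran from -0.32 to 0.17 for Pou3f1, -0.15 to 0.081 for Mbp, -0.38 to 0.17 for Mag, -0.47 to 0.16 for Prx and -0.10 to 0.087 for Isl1. In Isl1Cre/+ against WT they ran from -0.10 to 0.16 for Sox10, -0.35 to 0.34 for Pou3f1, -0.029 to 0.18 for Mbp, -0.015 to 0.19 for Pmp22, -0.21 to 0.33 for Mag and -0.16 to 0.57 for Prx. With 3 libraries a genotype, the intervals of Egr2, Pou3f1, Mag and Prx in mutant against WT ran from 0.532 to 1.52, 0.509 to 1.53, 0.624 to 1.48 and 0.636 to 1.55 fold.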
